A study of Homo sapiens with 54 samples.

Results

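The integrated stress response and the unfolded protein response were followed through 36 listed genes in WM266-4, a human melanoma cell line that carries the BRAF V600D mutation. The members were the rows of the deposited table that the probe annotation names by the listed symbols. It named 35 of the 36, out of 17875 probe sets with 1 gene symbol, and ATF4 itself is not analysed here. The named members comprise 11 stress regulators, 9 genes of amino acid synthesis and transport, 12 endoplasmic reticulum (ER) chaperones and folding factors, and 3 genes of ER-associated degradation.

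The integrated stress response begins with kinases that sense amino acid shortage, misfolded protein or other stress and phosphorylate the initiation factor eIF2. General translation falls while the transcription factor ATF4 is translated, and ATF4 with its partners induces amino acid synthesis and transport genes. The unfolded protein response arises in the ER membrane from PERK, which feeds into the same eIF2 branch, and from ATF6 and IRE1, whose product XBP1 drives chaperone and degradation genes.

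The 54 microarrays fell into 18 groups of 3, lettered a, b and c. In the inhibitor arm, cells received DMSO as vehicle, the BRAF inhibitor LGX818 at 0.05 µM, the MEK1/2 inhibitors trametinib at 0.003 µM or MEK162 at 0.3 µM, or an ERK1/2 inhibitor at 0.2 µM, for 3 h or 24 h. In the shRNA arm, cells carried a doxycycline-inducible shRNA against ERK1 (shERK1), against ERK2 (shERK2) or a non-targeting shRNA (NT), with doxycycline at 100 ng/ml, and were taken at day 3 and day 7 beside parental cells without an shRNA. The labels of the parental arrays disagree on whether doxycycline was given. All groups share the 1 cell line and its BRAF mutation, 1 shRNA was used per target, and the labels do not give separate cultures for the 3 arrays sharing a group. P-values therefore measure the spread between these arrays, which may be technical. In bulk RNA, a change in part of the cells and a smaller change in all of them cannot be told apart.

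Values are log2 expression levels, so a difference of 1 is a 2-fold change. Every treatment was compared with the control of its own time, DMSO or NT, by a limma fit over the 9703 genes (inhibitor arm) or 9779 genes (shRNA arm) that passed a level filter, and a gene was called where its Benjamini-Hochberg adjusted p was under 0.05. TRIB3 and CHAC1 lay below the filter in all 18 groups, which left 33 members tested in each arm. A gene that passed only through a group where it is high had to differ. Every tested member averaged over the filter level in all 18 groups, so this bears on the shares of all tested genes and not on the members. The counts describe the members tested, and class medians are taken over all named members. The 4 inhibitors of a time share 3 DMSO arrays, and both targeting shRNAs of a day share 3 NT arrays. Background shares are of all tested genes, by direction for each treatment against its own DMSO or NT control. For the other comparisons they count both directions together, so their splits into higher and lower have no share beside them.

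Melanocyte lineage markers were high in every group, with MITF at 11.7 to 12.7 and TYR at 12.3 to 13.1, while the leukocyte marker PTPRC stayed between 3.27 and 3.43 and the epithelial marker EPCAM between 3.31 and 4.19. MAPK3, the gene of ERK1, lay between 7.98 and 8.49 on the 6 shERK1 arrays and between 9.30 and 9.87 on the other 18 arrays of the shRNA arm. Array a of shERK2 day 7 stood apart in RNA quality: its GAPDH 3′ probe set exceeded the 5′ one by 1.53 on the log2 scale. The same gap was 0.707 on array c of the ERK inhibitor at 3 h, 0.565 on array c of shERK2 day 7 and 0.164 to 0.320 on the control arrays. Where leaving out array a of shERK2 day 7 or array c of the ERK inhibitor at 3 h ended a member's call against NT or DMSO or moved it by over 1.5 times, the value without that array is given. Values of single genes in other comparisons, and of genes outside the members, were not refitted without these arrays.

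Promoter sequences from RefSeq (GRCh38.p14, 250 bases before to 50 after each gene start) show the elements that name both branches. The ER stress element, read by ATF6 and XBP1, was searched as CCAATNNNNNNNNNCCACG and the core of the element read by C/EBP-ATF pairs as TGATGNAA, both on either strand. The first was found in 27 of 35116 windows (0.0769%), which belong to 25 of 27305 genes (0.0916%). It was found in 6 of the 12 chaperones, namely HSPA5, HSP90B1, PDIA6, CALR, CANX and CRELD2, and also in XBP1. The second was found in 1270 windows (3.62%) of 1217 genes (4.46%), and among members in ASNS, SLC3A2, CEBPG, CHAC1 and HERPUD1. Windows existed for 32 members, and PSPH, SHMT2 and SLC7A11 had none. The 5 excerpts below are shown because they belong to the central chaperone, 1 further chaperone that moved with it, the regulator XBP1 and 2 genes of the ATF4 branch. Capitals mark the match, read 5′ to 3′ on the gene's strand, and a match is only a match of letters.
HSPA5: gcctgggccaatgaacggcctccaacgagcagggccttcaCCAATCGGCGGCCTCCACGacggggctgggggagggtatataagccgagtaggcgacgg
CRELD2: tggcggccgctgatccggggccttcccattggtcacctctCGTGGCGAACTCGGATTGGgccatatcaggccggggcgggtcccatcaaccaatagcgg
XBP1: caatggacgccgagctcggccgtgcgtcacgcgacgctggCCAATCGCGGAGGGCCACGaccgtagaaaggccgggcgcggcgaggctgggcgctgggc
ASNS: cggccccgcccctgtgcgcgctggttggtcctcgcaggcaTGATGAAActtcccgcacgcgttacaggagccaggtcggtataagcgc
CEBPG: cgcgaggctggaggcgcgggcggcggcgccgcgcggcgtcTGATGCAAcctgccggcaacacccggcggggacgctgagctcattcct
The HSPA5 stretch lies at chr9:125241351-125241449 on the minus strand, the CRELD2 stretch at chr22:49918514-49918612 on the plus strand and the XBP1 stretch at chr22:28800563-28800661 on the minus strand. The ASNS stretch lies at chr7:97872429-97872516 on the minus strand and the CEBPG stretch at chr19:33374031-33374118 on the plus strand. In CRELD2 the match is on the opposite strand, so the capitals show the element's reverse complement.

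Within 3 h of pathway inhibition, 5 of the 9 tested stress regulators were called with LGX818 and 4 with each of the other inhibitors. LGX818 changed 7 of the 33 members tested, with 3 higher and 4 lower, against 5.27% of all tested genes that rose and 6.43% that fell. Trametinib changed 5, with 2 higher (background 5.09%) and 3 lower (6.18%). MEK162 changed 7, with 4 higher (6.38%) and 3 lower (6.77%). The ERK inhibitor changed 7, with 3 higher (5.51%) and 4 lower (4.87%). At 3 h 0 of 12 chaperones were called by limma in each of the 4 comparisons, and at an unadjusted p under 0.05 1 passed with trametinib and 0 with the others. Without array c, the ERK inhibitor changed 5 members, with 2 higher and 3 lower. With MEK162 at 3 h, where same-lettered arrays deviated together, a fit of only the 2 groups with the array letter as a replicate block called 14 members in place of 7, among them CEBPG (adjusted p = 0.00429) and DDIT3 (adjusted p = 0.0401). The share of all genes called by that fit is not given here, so its count is not a result about the members.

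CEBPB, which encodes the transcription factor C/EBP-beta, a partner of ATF4 and a mediator of growth and inflammatory signals, fell most. Its level was 11.95, 11.98 and 11.93 on the DMSO arrays at 3 h and 10.56, 10.65 and 10.80 with LGX818. Trametinib arrays read 10.56, 10.81 and 10.65, MEK162 arrays 10.79, 10.78 and 10.98, and ERK inhibitor arrays 11.04, 11.08 and 11.24. All 12 treated arrays lay below all 3 DMSO arrays. The differences were -1.29 ± 0.10 (SE, limma adjusted p = 1.44e-10) for LGX818, -1.28 for trametinib, -1.10 for MEK162 and -0.83 for the ERK inhibitor (adjusted p = 6.96e-07). CEBPG, its relative that pairs with ATF4, fell by 0.32 with LGX818, by 0.27 with trametinib and by 0.22 with the ERK inhibitor, and was -0.21 with MEK162 without passing the test over all groups of the arm. The ERK inhibitor call for CEBPG was lost without array c (-0.14, adjusted p = 0.396).

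PPP1R15A (GADD34), the phosphatase subunit that removes the phosphate from eIF2 and so ends the response, fell at 3 h with every inhibitor. DMSO arrays at 3 h read 9.94, 10.01 and 10.17. LGX818 arrays read 9.30, 9.50 and 9.56, and ERK inhibitor arrays 9.41, 9.47 and 9.74. The groups did not overlap, and the differences ran from -0.58 ± 0.09 with LGX818 (limma adjusted p = 5.36e-05) to -0.50 with the ERK inhibitor (adjusted p = 0.000564). TRIB3, a pseudokinase that dampens ATF4 signalling, was not tested, and its fitted differences were -0.63, -0.46, -0.61 and -0.38 for LGX818, trametinib, MEK162 and the ERK inhibitor in turn.

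In the opposite direction, VLDLR, a lipoprotein receptor gene that ATF4 signalling can induce, rose by 0.43, 0.36, 0.47 and 0.46 in the same order. It read 9.13, 9.22 and 9.18 with DMSO and 9.53, 9.78 and 9.63 with MEK162, without overlap. DDIT4 (REDD1), an inhibitor of mTORC1, rose with LGX818 (0.19) and MEK162 (0.21), and its values with trametinib (-0.04) and the ERK inhibitor (0.01) did not pass the test. DDIT3 (CHOP), the factor that drives the late response to lasting stress, did not pass at 3 h, with differences from 0.02 to 0.27. XBP1 lay between -0.07 and 0.10 and ATF6 between 0.06 and 0.13, also without a call.

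Among amino acid genes at 3 h, SLC7A5 (LAT1), the light chain of the large neutral amino acid transporter, rose with all 4 inhibitors. DMSO arrays read 13.13, 13.09 and 13.09, and LGX818 arrays 13.49, 13.49 and 13.54. Every treated array lay above the DMSO arrays, and the differences were 0.40 ± 0.05 (limma adjusted p = 3.54e-06), 0.28, 0.21 and 0.32. SLC7A11 (xCT), the cystine carrier, fell with LGX818 (-0.20), MEK162 (-0.34) and the ERK inhibitor (-0.33), and was -0.15 with trametinib without a call. The LGX818 call for SLC7A11 was lost without the level filter (limma adjusted p = 0.0688) and with each array centred on its median (adjusted p = 0.0695). It was also lost in a fit of only the 2 groups, without any single DMSO array and without LGX818 array b or c. SLC3A2 (CD98), the heavy chain shared by both carriers, was 0.31 to 0.35 higher in the 4 comparisons and passed in 0 of them. Without array c it was 0.11 with the ERK inhibitor. The fit of only the 2 groups with the replicate block was run at 3 h for MEK162 and the ERK inhibitor alone. It called SLC3A2 in both, at a limma adjusted p of 0.00011 and 0.0327. Without the block, the fit of only the 2 groups called SLC3A2 with LGX818 (adjusted p = 0.0341). ASNS, asparagine synthetase, stayed between -0.05 and 0.09 without a call. HERPUD1, which helps to assemble the ER degradation complex, rose with MEK162 (0.22) and with the ERK inhibitor (0.22), the latter only with array c included (0.14 without it, adjusted p = 0.171).

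**Figure D1:**
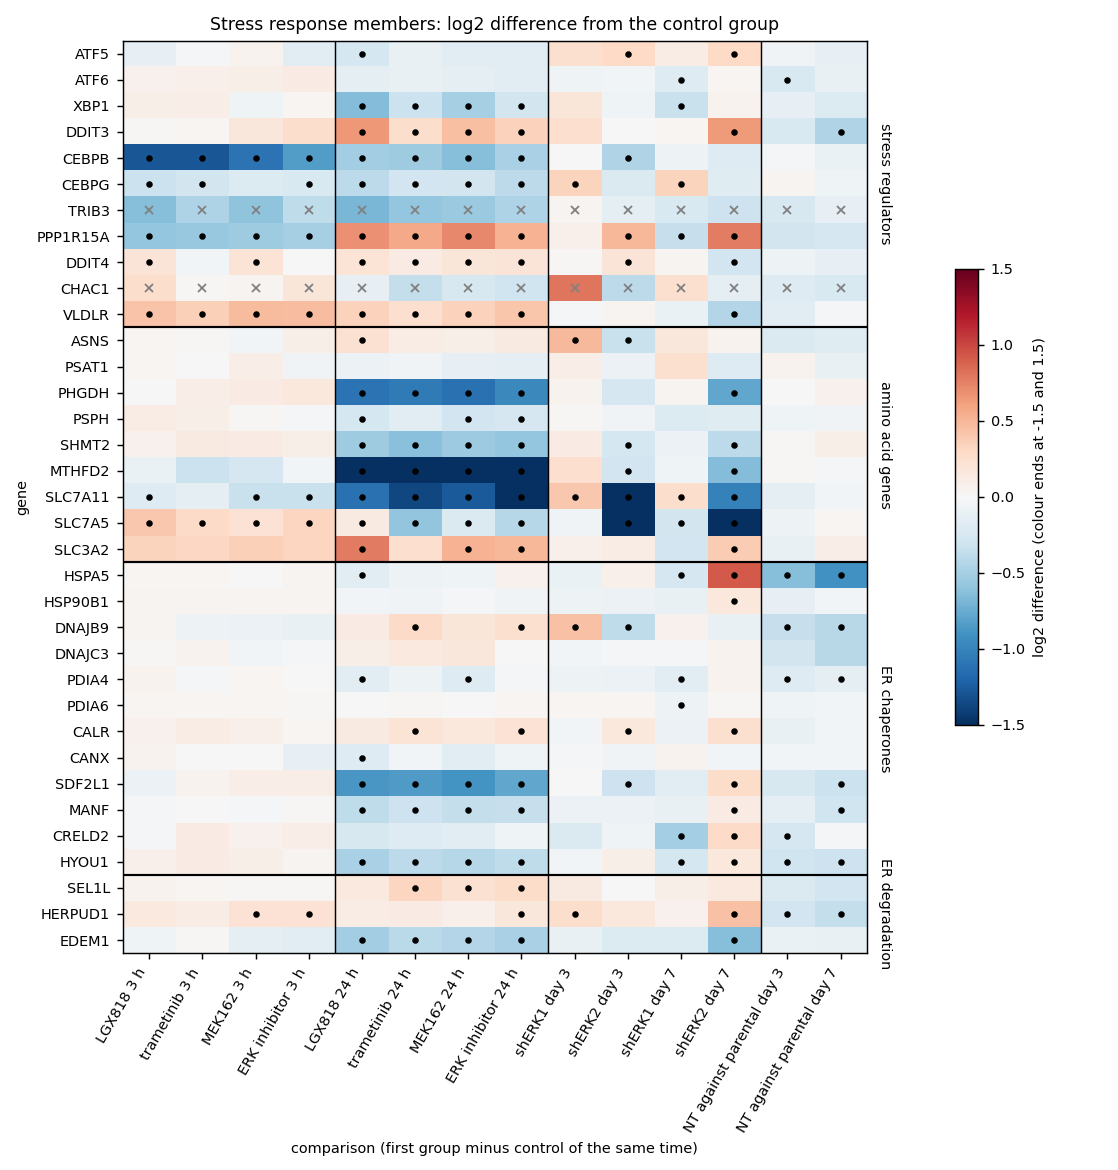
Log2 difference from the control of the same time for the 35 named members (rows, in 4 classes) in the 12 treatment comparisons and in NT against parental cells (columns), with black dots for calls at limma adjusted p under 0.05 and grey crosses for the 2 untested members. The block of calls lies in the 24 h columns and in shERK2 day 7, and the HSPA5 row is blue in NT against parental cells and red in shERK2 day 7.

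After 24 h most tested members had changed with each inhibitor. LGX818 changed 23 of 33, with 7 higher (background 35.4%) and 16 lower (33.8%). Trametinib changed 19, with 7 higher (31.6%) and 12 lower (33%). MEK162 changed 20, with 6 higher (33.4%) and 14 lower (33.8%). The ERK inhibitor changed 22, with 9 higher (33.6%) and 13 lower (31.5%). Most tested genes of the arm were called at 24 h. The totals changed were 69.7%, 57.6%, 60.6% and 66.7% of the tested members in that order. These are close to or below the background of both directions together and are not a result about the members. By direction, with each inhibitor the share of members that rose was below its background and the share that fell above it, which was not tested.

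The stress regulators turned in part between 3 h and 24 h. PPP1R15A read 8.82, 8.83 and 8.81 on the DMSO arrays at 24 h and 9.38, 9.58 and 9.56 with LGX818. MEK162 arrays read 9.45, 9.46 and 9.70, trametinib arrays 9.52, 9.36 and 9.28, and ERK inhibitor arrays 9.43, 9.30 and 9.30. No treated array overlapped the DMSO arrays, and the differences were 0.69 ± 0.09 (limma adjusted p = 4.31e-07), 0.56, 0.72 and 0.52, listed with LGX818 first, then trametinib, MEK162 and the ERK inhibitor. The DMSO arrays themselves were 1.22 lower at 24 h than at 3 h, while the treated group means lay between 9.34 and 9.54 at both times. DDIT3 rose by 0.65 ± 0.10 with LGX818 (adjusted p = 4.01e-06), 0.27 with trametinib, 0.45 with MEK162 and 0.34 with the ERK inhibitor, from 8.85, 8.61 and 8.69 with DMSO to 9.25, 9.42 and 9.43 with LGX818. The trametinib call for DDIT3 was lost without DMSO array b or c and without trametinib array a or b.

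CEBPB stayed lower at 24 h (-0.52, -0.54, -0.63 and -0.49) and so did CEBPG (-0.39, -0.29, -0.28 and -0.39). XBP1 read 11.52, 11.59 and 11.54 with DMSO and 11.10, 10.87 and 10.74 with LGX818. It fell by 0.65 with LGX818, by 0.32 with trametinib, by 0.49 with MEK162 and by 0.27 with the ERK inhibitor. The array measures total XBP1 RNA and not its spliced form. VLDLR (0.25 to 0.42) and DDIT4 (0.12 to 0.21) rose with all 4 inhibitors. The trametinib call for VLDLR was lost without DMSO array a or b and without trametinib array a or b. That for DDIT4 was lost without DMSO array a and without trametinib array a or b. ATF5, a relative of ATF4 under the same translational control, fell with LGX818 (-0.26) and lay between -0.16 and -0.12 with the others without a call. The LGX818 call for ATF5 was lost without the level filter (limma adjusted p = 0.0618) and in a fit of only the 2 groups (adjusted p = 0.0526). It was also lost without DMSO array a or b and without LGX818 array a or b, and the arrays overlapped. ATF6 was called in 0 of the 4 comparisons, with differences between -0.15 and -0.12.

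MTHFD2, the mitochondrial folate enzyme, had the lowest difference of the tested members with each inhibitor. It read 10.98, 11.37 and 11.47 with DMSO at 24 h and 8.55, 8.57 and 8.50 with LGX818. Trametinib arrays read 9.17, 9.22 and 9.08, MEK162 arrays 8.28, 8.50 and 8.66, and ERK inhibitor arrays 9.06, 9.50 and 8.98. The lowest DMSO array lay above every treated array by more than the spread within any of these groups. The differences were -2.74 ± 0.13 with LGX818 (a 6.66-fold lower level, limma adjusted p = 2.62e-16), -2.12, -2.79 and -2.09.

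PHGDH, the enzyme that opens serine synthesis, read 11.17, 11.01 and 11.10 with DMSO and 9.98, 9.98 and 9.99 with LGX818. It fell by 1.11 with LGX818, by 1.06 with trametinib, by 1.12 with MEK162 and by 0.96 with the ERK inhibitor, without overlap of arrays. SHMT2, which moves the one-carbon unit from serine in mitochondria, fell by 0.53, 0.62, 0.55 and 0.58. The 2 later steps of serine synthesis moved less. PSPH was lower with LGX818 (-0.27), MEK162 (-0.28) and the ERK inhibitor (-0.25), and PSAT1 passed in 0 of 4, with differences from -0.14 to -0.05. Each of these PSPH calls was lost without DMSO array b. The ERK inhibitor call for PSPH was also lost without its array a (-0.14, limma adjusted p = 0.206). ASNS rose with LGX818 (0.22, adjusted p = 0.0376) and was 0.09 to 0.13 with the others without a call. Its LGX818 call was lost without DMSO array b (0.14, adjusted p = 0.224), without LGX818 array b or c, without the level filter (adjusted p = 0.0524) and in a fit of all 54 arrays (adjusted p = 0.0763).

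The transporters did not move together. SLC7A11 read 10.53, 10.56 and 10.44 with DMSO and 8.80, 8.87 and 8.80 with the ERK inhibitor. It fell by 1.12, 1.37, 1.26 and 1.68 in that same order. SLC7A5 read 12.56, 12.64 and 12.61 with DMSO, 12.77, 12.79 and 12.67 with LGX818, 12.08, 11.99 and 11.95 with trametinib, 12.37, 12.36 and 12.41 with MEK162, and 12.23, 12.12 and 12.18 with the ERK inhibitor. LGX818 arrays were thus the only treated ones above DMSO, by 0.14 (limma adjusted p = 0.0262), and the other differences were -0.60, -0.22 and -0.43. The LGX818 rise was lost with each array centred on its median (0.13, adjusted p = 0.0539) and in a fit of all 54 arrays (adjusted p = 0.0628). It was also lost without DMSO array a and without LGX818 array a or b. SLC3A2 rose with LGX818 (0.78), MEK162 (0.52) and the ERK inhibitor (0.50), and was 0.25 with trametinib without a call.

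**Figure D2:**
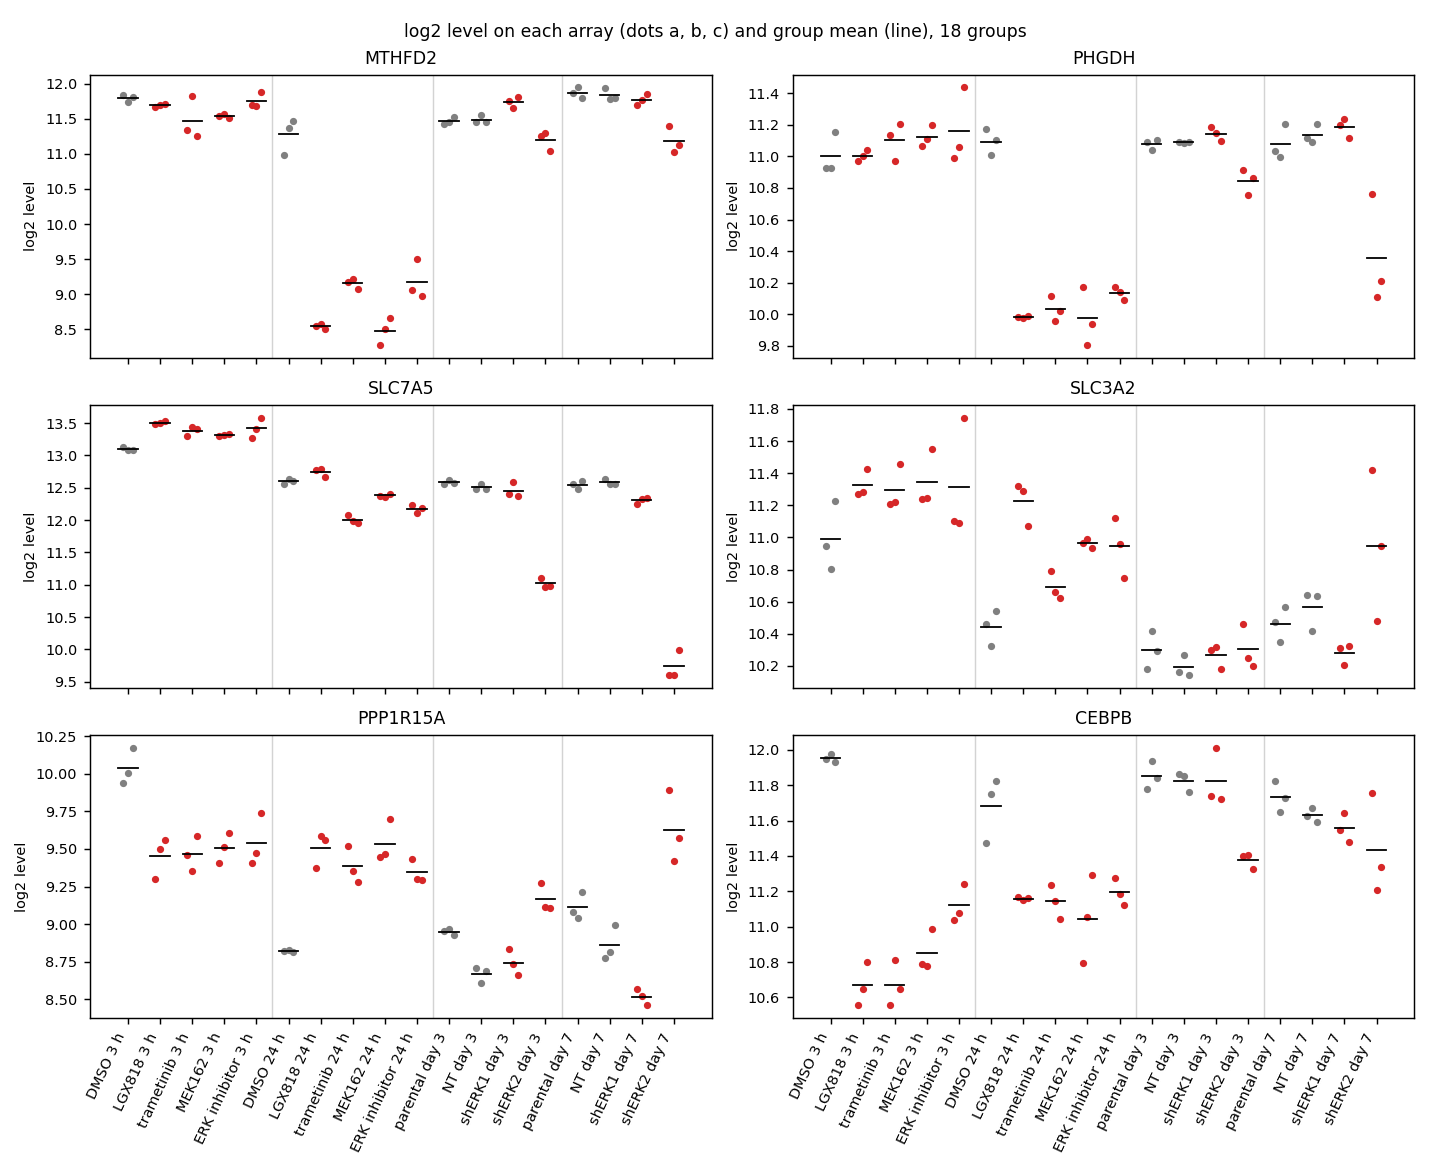
Log2 level of 6 members on each of the 54 arrays (dots, grey for control groups and red for treated ones, in the order a, b, c) with the group mean (line), for the 18 groups along the horizontal axis. MTHFD2 and PHGDH drop in the 24 h inhibitor groups, SLC7A5 drops most in shERK2 day 7, and the PPP1R15A control mean falls from 10.04 at 3 h to 8.82 at 24 h.

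Of the ER genes at 24 h, SDF2L1, HYOU1, MANF and EDEM1 fell with all 4 inhibitors. SDF2L1, a cofactor of the chaperone BiP, read 10.20, 10.04 and 10.09 with DMSO and 9.17, 9.25 and 9.30 with LGX818. It fell by 0.87 (limma adjusted p = 9.63e-08), 0.85, 0.90 and 0.77. HYOU1, the ER chaperone GRP170, fell by 0.48, 0.39, 0.43 and 0.38. MANF, a secreted ER stress protein that binds BiP, fell by 0.38, 0.31, 0.35 and 0.34. EDEM1, which hands misfolded glycoproteins to degradation, read 12.99, 12.95 and 12.86 with DMSO and 12.40, 12.37 and 12.47 with LGX818, and fell by 0.52, 0.40, 0.44 and 0.48. For these 4 genes, none of the treated arrays overlapped the DMSO arrays.

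HSPA5 (BiP), the main ER chaperone and the usual readout of the unfolded protein response, barely moved. It read 11.59, 11.59 and 11.70 with DMSO, 11.46, 11.44 and 11.49 with LGX818, 11.62, 11.49 and 11.54 with trametinib, 11.58, 11.48 and 11.64 with MEK162, and 11.70, 11.72 and 11.66 with the ERK inhibitor. Only LGX818 passed (-0.16 ± 0.05, limma adjusted p = 0.00253). The other 3 differences were -0.08, -0.06 and 0.06, and the ERK inhibitor lay 0.13 above the mean of both MEK inhibitors.

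Of the protein disulphide isomerases, PDIA4 fell with LGX818 (-0.17) and MEK162 (-0.19), and PDIA6 was called in 0 of 4. Of the lectin chaperones that fold glycoproteins, CALR rose with trametinib (0.20) and the ERK inhibitor (0.21), and CANX fell with LGX818 (-0.20). Without DMSO array c CALR was 0.11 with trametinib and 0.12 with the ERK inhibitor, not called (limma adjusted p = 0.239 and 0.176). With each array centred on its median, the ERK inhibitor call for CALR was lost (adjusted p = 0.128), and so was that of CANX with LGX818 (adjusted p = 0.0718). The CANX call was also lost without DMSO array a or b and without LGX818 array b or c. DNAJB9, a BiP cochaperone, rose with trametinib (0.29) and the ERK inhibitor (0.24), and SEL1L, the scaffold of the degradation ligase, with trametinib (0.33), MEK162 (0.23) and the ERK inhibitor (0.28). The ERK inhibitor call for DNAJB9 was lost with each array centred on its median (limma adjusted p = 0.154) and without the level filter (adjusted p = 0.0517). It was also lost in a fit of all 54 arrays, without DMSO array a or c and without ERK inhibitor array b or c. HERPUD1 rose with the ERK inhibitor (0.17). HSP90B1, DNAJC3 and CRELD2 were called in 0 of 4. With MEK162 at 24 h, where same-lettered arrays also deviated together, the fit of only the 2 groups with the replicate block called 26 members in place of 20. It added ATF6 (-0.14), CANX (-0.16) and CRELD2 (-0.18) as falls, and DNAJB9 (0.18), DNAJC3 (0.17) and CALR (0.16) as rises. The share of all genes called by that fit is not given here, so its count is not a result about the members.

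Set side by side at 24 h, the median over the 9 amino acid genes was -0.27 with LGX818, -0.60 with trametinib, -0.28 with MEK162 and -0.43 with the ERK inhibitor. The median over the 15 ER chaperone and degradation genes was -0.16, -0.05, -0.06 and -0.02, and the median over all tested genes lay between -0.0033 and 0.0162. At 3 h both classes had medians between 0.02 and 0.10, beside 0.02 to 0.04 for all tested genes. The amino acid genes spanned -2.74 to 0.78 with LGX818 at 24 h, and the ER genes -0.87 to 0.15. The class medians are descriptions without a test, and MTHFD2, SLC7A11, PHGDH and SHMT2 were the 4 lowest amino acid genes with each inhibitor.

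**Figure D3:**
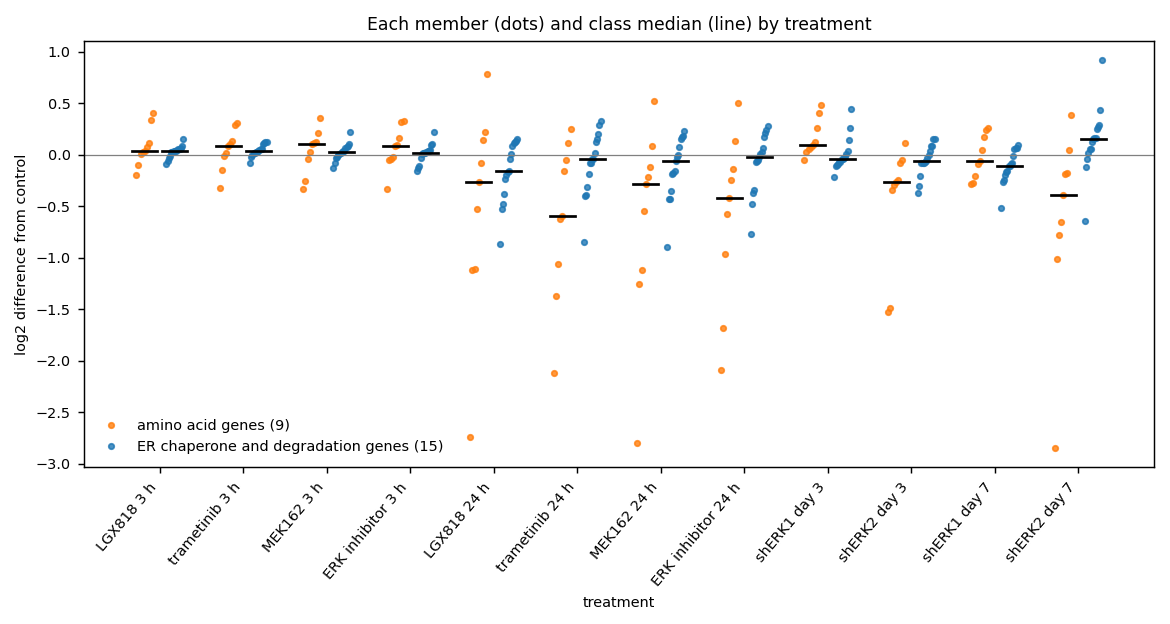
Log2 difference from the control (vertical axis) of the 9 amino acid genes (orange) and the 15 ER chaperone and degradation genes (blue) in the 12 treatments along the horizontal axis, each dot a gene and each line a class median. The widest spread of the amino acid genes is at 24 h and in shERK2 day 7, where the ER median lies at 0.15 and the amino acid median at -0.40.

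The effects at 24 h and 3 h were also compared by a test of their difference. With LGX818 16 members differed between the times (background 52%), with trametinib 15 (49.7%), with MEK162 13 (50.9%) and with the ERK inhibitor 15 (48.7%). MTHFD2, PHGDH, SHMT2, SLC7A11, SLC7A5, SDF2L1, MANF, HYOU1 and EDEM1 had a lower effect at 24 h with all 4 inhibitors. CEBPB had a less negative effect at 24 h with all 4, by 0.35 to 0.76. In DMSO cells alone 13 members differed between 24 h and 3 h (31.4%), with 6 higher and 7 lower. PPP1R15A fell there by 1.22 and ATF5 by 0.83, and VLDLR (0.74) and DDIT4 (0.68) rose.

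Between inhibitors at 24 h, the shares of tested members that differed were 12.1%, 6.06% and 6.06% in the order below. These are close to the shares of all tested genes and are not a result about the members. LGX818 differed from the mean of both MEK inhibitors in 4 members (background 9.84%), which were higher with LGX818: SLC7A5 by 0.55, SLC3A2 by 0.40, DDIT3 by 0.29 and SLC7A11 by 0.19. The ERK inhibitor differed in 2 (4.96%), with SLC7A11 lower by 0.37 and HSPA5 higher by 0.13. Trametinib differed from MEK162 in 2 (4.59%), with MTHFD2 higher by 0.67 and SLC7A5 lower by 0.38. Leaving out LGX818 array b left 1 call for LGX818 against the MEK inhibitors. The doses differ between the compounds, and the values stand as measured at these doses.

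In the shRNA arm the 2 kinds of control cells differed in ER genes. Against parental cells, NT cells were lower in 7 of 33 members at day 3 and in 8 at day 7, and higher in 0, by limma, with 0 higher also at an unadjusted p under 0.05. Of all tested genes, 11.9% at day 3 and 16.4% at day 7 were called in either direction, and the shares by direction are not given here. HSPA5 read 11.56, 11.59 and 11.64 on the parental arrays of day 3 and 10.98, 10.87 and 11.02 on the NT arrays. At day 7 the parental arrays read 11.66, 11.64 and 11.67, and the NT arrays 10.60, 10.86 and 10.79. The NT arrays lay below all parental arrays at both days, by 0.64 ± 0.06 (SE, limma adjusted p = 1.55e-07) and by 0.91 ± 0.06 (adjusted p = 4.06e-10). DNAJB9, PDIA4, HYOU1 and HERPUD1 were also lower at both days, with HERPUD1 at -0.29 and -0.36. ATF6 and CRELD2 were lower at day 3, and SDF2L1, MANF and DDIT3 at day 7. The ER median in NT against parental cells was -0.22 at day 3 and -0.28 at day 7, beside 0.01 for all tested genes, and that of the amino acid genes was -0.06 and -0.03. Doxycycline and the presence of an shRNA cannot be told apart in this contrast. Over time NT cells changed in 2 members (5.5%) and parental cells in 2 (6.94%), and in both MTHFD2 rose (0.35 and 0.40) and SLC7A11 fell (-0.31 and -0.41).

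shERK1 changed 5 members at day 3 and 11 at day 7, and 0 had an effect that differed between the days by limma. At day 3 it raised 5 (background 1.97%) and lowered 0 (2.69%) of 33 by limma, with 1 lower at an unadjusted p under 0.05: ASNS by 0.48, DNAJB9 by 0.44, SLC7A11 by 0.40, CEBPG by 0.33 and HERPUD1 by 0.26. ASNS read 10.54, 10.76 and 10.59 on the NT arrays and 11.01, 11.30 and 11.03 on the shERK1 arrays, without overlap. CHAC1, a glutathione-degrading enzyme and ATF4 target, was 0.81 higher there but was not tested. Leaving out 1 array at a time gave 1 to 4 calls, with 1 left without NT array c, and without shERK1 array b CEBPG was 0.17 (adjusted p = 0.285). Against parental cells HERPUD1 was -0.03 (adjusted p = 0.795), DNAJB9 0.09 (adjusted p = 0.642) and ASNS 0.27 (adjusted p = 0.146), without a call.

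At day 7 shERK1 raised 2 members (8.74%), CEBPG (0.34) and SLC7A11 (0.26), and lowered 9 (9.16%). CRELD2, an ER stress-induced protein with disulphide isomerase activity, read 12.11, 12.06 and 12.15 on the NT arrays and 11.72, 11.44 and 11.62 with shERK1. It fell by 0.51 ± 0.08 (limma adjusted p = 0.000103). PPP1R15A (-0.34), XBP1 (-0.34), SLC7A5 (-0.27), HYOU1 (-0.27), HSPA5 (-0.25), ATF6 (-0.20), PDIA4 (-0.17) and PDIA6 (-0.08) fell too. HSPA5 and HYOU1 were thus lower in shERK1 cells than in NT cells, which were themselves lower than parental cells. Leaving out 1 array at a time gave 6 to 9 calls, with 6 without NT array a, and 7 without NT array c or shERK1 array c. The ATF6 call was lost without any single NT array and without shERK1 array b or c. The PDIA6 call was lost without NT array a or c and without shERK1 array b or c. It was also lost without the level filter and with each array centred on its median. PPP1R15A was not called without array c of NT or shERK1, and HSPA5 not without NT array b. SLC7A5 and SLC7A11 were not called without array a of NT or shERK1. CEBPG was not called without NT array a or c or shERK1 array c. No member had an effect that differed between day 7 and day 3 by limma (0 of 33 adjusted, 9 at an unadjusted p under 0.05, background 0.522%).

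shERK2 lowered the transporter genes SLC7A5 and SLC7A11 at both days. At day 3 it raised 4 members (background 17.5%) and lowered 8 (15.5%). SLC7A5 read 12.48, 12.56 and 12.48 on the NT arrays of day 3 and 11.10, 10.97 and 10.99 with shERK2. It fell by 1.49 ± 0.08 (limma adjusted p = 2.64e-12). SLC7A11 read 10.27, 10.17 and 10.14 with NT and 8.66, 8.79 and 8.55 with shERK2, and fell by 1.53 (adjusted p = 4.46e-13). Neither gene's groups overlapped. ASNS (-0.34), MTHFD2 (-0.29) and SHMT2 (-0.26) fell as well, which made 5 of 9 amino acid genes lower and 0 higher. The ASNS call was lost without the level filter (limma adjusted p = 0.0565), without shERK2 array a or c and without any NT array. The MTHFD2 call was lost without shERK2 array c (-0.21, adjusted p = 0.0685).

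Of the regulators at day 3, PPP1R15A (0.50), ATF5 (0.30) and DDIT4 (0.19) rose, and CEBPB fell (-0.45). Against parental cells PPP1R15A was 0.22 (limma adjusted p = 0.087) and DDIT4 0.11 (adjusted p = 0.118), without a call. Of the ER genes, CALR rose (0.15), DNAJB9 (-0.38) and SDF2L1 (-0.31) fell, and 12 of 15 were not called. The CALR call was lost with each array centred on its median and without array b or c of shERK2 or NT. Against parental cells CALR was 0.05 (limma adjusted p = 0.581). The SDF2L1 call was lost without shERK2 array a or b and without NT array a or c, and the DNAJB9 call without shERK2 array a. HSPA5 was 0.08 above NT at day 3 without a call and 0.56 below parental cells.

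At day 7 shERK2 raised 12 members (32.8%) and lowered 8 (31.5%), and without array a it raised 11 and lowered 9. With each array centred on its median it raised 5 and lowered 11, and the falls of CEBPB (-0.31), CEBPG (-0.30) and PSPH (-0.29) were gained. The shares of all genes called after centring are not given here, so the centred counts are not a result about the members. SLC7A5 read 12.63, 12.55 and 12.56 on the NT arrays and 9.609, 9.603 and 9.996 on the shERK2 arrays. The difference of -2.85 ± 0.08 (a 7.19-fold lower level, limma adjusted p = 1.33e-17) was the largest of any member against NT, and it was -2.81 against parental cells. SLC7A11 fell by 1.01, PHGDH by 0.78, MTHFD2 by 0.65 and SHMT2 by 0.40. PHGDH read 11.12, 11.09 and 11.20 with NT and 10.76, 10.11 and 10.21 with shERK2, where array a is the one that stood apart. Without array a the PHGDH difference was -0.98. SLC3A2, the partner of SLC7A5, read 10.64, 10.41 and 10.64 with NT and 11.42, 10.48 and 10.94 with shERK2. Its rise of 0.38 was lost without array a (0.15, adjusted p = 0.239). ASNS was 0.05 without a call.

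Among the regulators at day 7, PPP1R15A read 8.77, 8.81 and 8.99 with NT and 9.89, 9.42 and 9.57 with shERK2, a rise of 0.77 (limma adjusted p = 3.06e-07). DDIT3 read 8.35, 8.17 and 8.41 with NT and 9.38, 8.79 and 8.69 with shERK2, a rise of 0.64, and of 0.42 without array a. DDIT3 was not called against parental cells, and NT lay 0.45 below them at day 7. ATF5 rose by 0.30, and VLDLR (-0.44) and DDIT4 (-0.28) fell. XBP1 was 0.05 and CEBPB -0.20 without a call, and CEBPB passed without array a (-0.36).

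With NT as control 7 of 12 chaperones rose in shERK2 day 7 cells (background 32.8%) and 0 fell by limma (31.5%). Of these rises, 5 were not called with each array centred on its median. Without array a 6 chaperones rose and 0 fell. HSPA5 read 10.60, 10.86 and 10.79 on the NT arrays and 11.59, 11.78 and 11.63 on the shERK2 arrays, a rise of 0.92 ± 0.06 (limma adjusted p = 5.67e-11), and of 0.96 without array a. The parental arrays of day 7 read 11.66, 11.64 and 11.67, and shERK2 differed from them by 0.01 ± 0.06 (adjusted p = 0.907), with overlapping arrays. The NT and shERK1 arrays of day 7 lay below all arrays of both groups. HERPUD1 rose by 0.44 against NT and was 0.07 against parental cells without a call. CRELD2 (0.29), CALR (0.25) and HSP90B1 (0.16) rose against NT and were also higher than in parental cells, by 0.27, 0.21 and 0.12. Without array a the rises against NT were 0.19 for CRELD2 and 0.10 for HSP90B1, and those of SEL1L and DNAJC3 (0.29 each) passed. The values against parental cells include array a and were not refitted without it. In a fit of only the 2 groups, CRELD2 and HSP90B1 were not called against NT (limma adjusted p = 0.076 and 0.0674).

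SDF2L1 (0.27), HYOU1 (0.16) and MANF (0.12) rose against NT, while their values against parental cells were -0.05, -0.15 and -0.18. The SDF2L1 and MANF calls were also lost without array a (0.07 for each). With each array centred on its median, the median over all genes shifted by -0.11 in shERK2 day 7, and the rises of ATF5, SLC3A2, HSP90B1, CALR, SDF2L1, MANF and HYOU1 no longer passed while HSPA5 did. EDEM1 read 12.78, 12.90 and 12.74 with NT and 11.62, 12.52 and 12.35 with shERK2, and fell by 0.64. The EDEM1 difference was -0.37 without array a and -0.75 against parental cells. Over the 15 ER genes the median was 0.15 with NT as control, 0.04 with each array centred on its median and -0.09 with parental cells as control, and over the 9 amino acid genes it was -0.40 and -0.31.

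**Figure D4:**
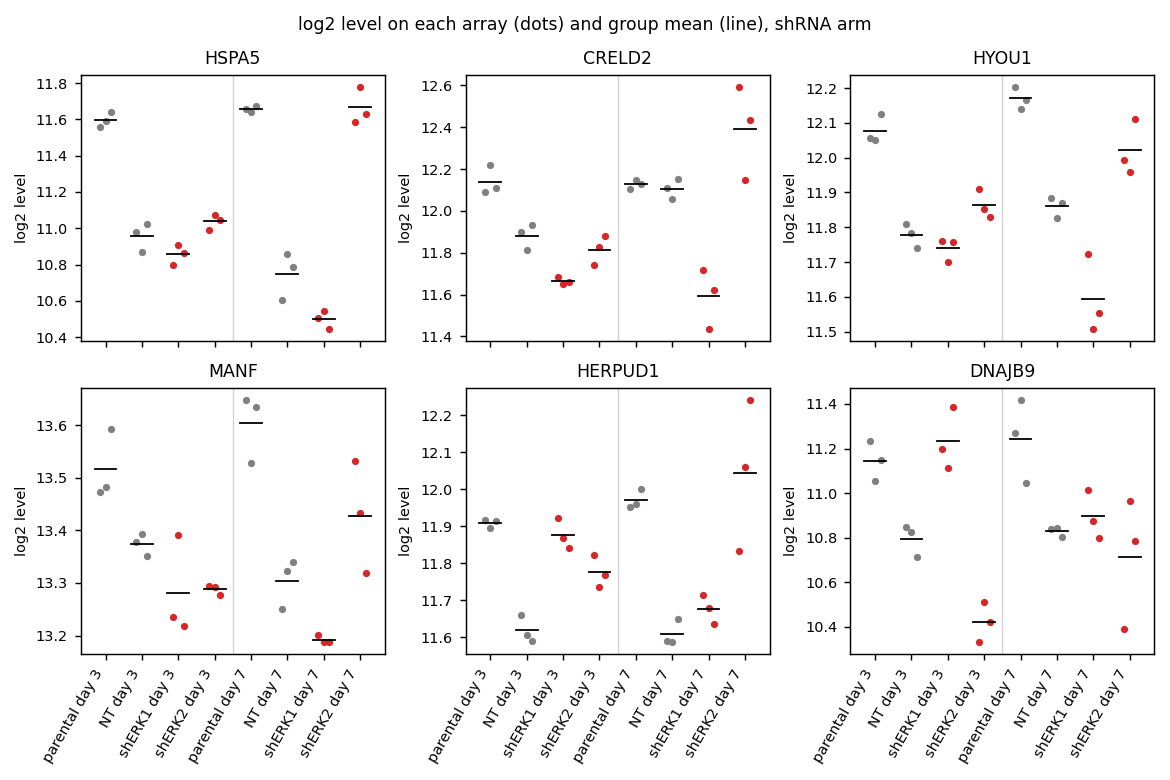
Log2 level of 6 ER genes on each array (dots, grey for parental and NT, red for shERK1 and shERK2) with the group mean (line), for the 8 groups of the shRNA arm. HSPA5 lies between 11.56 and 11.78 in parental cells and in shERK2 day 7 and between 10.45 and 11.08 in the other groups with an shRNA.

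With parental cells as control, an alternative added after seeing the data, shERK1 changed 10 members at day 3 (background 21.2%) and 19 at day 7 (39.6%), and shERK2 changed 16 at day 3 (27%) and 20 at day 7 (60%). Of these, 3 were higher and 7 lower with shERK1 at day 3, and 2 higher and 17 lower at day 7. With shERK2, 1 was higher and 15 lower at day 3, and 5 higher and 15 lower at day 7. The falls of SLC7A5, SLC7A11, MTHFD2 and SHMT2 with shERK2 held with either control at both days.

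Both targeting shRNAs were also compared directly, where the NT arrays cancel. At day 3 shERK2 and shERK1 differed in 15 members (background 35.5%), with 4 higher and 11 lower in shERK2, led by SLC7A11 (-1.93) and SLC7A5 (-1.44). At day 7 they differed in 26 (68.7%), with 16 higher and 10 lower. HSPA5 was 1.17 higher in shERK2 (limma adjusted p = 7.33e-13), PPP1R15A 1.11 higher and CRELD2 0.80 higher, and SLC7A5 stood at -2.57. The shERK2 effect against NT differed between day 7 and day 3 in 13 members (23.9%), with a difference of 0.83 for HSPA5 and -1.36 for SLC7A5.

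Other genes of the pathways were read from lists of the same branches. The shERK2 day 7 values of all these further genes include array a and were not refitted without it. Of 22 further ATF4-type targets tested in the inhibitor arm, 6 rose and 9 fell with LGX818 at 24 h, and 5 rose and 10 fell with MEK162. The shares of all tested genes were 35.4% and 33.8% with LGX818 and 33.4% and 33.8% with MEK162. ATF3, a stress-induced factor of the ATF family, rose by 2.28 with LGX818 and by 2.63 with shERK2 at day 7. SESN2, which restrains mTORC1 when leucine is low, rose by 0.58 and 1.22, and SLC1A4, a neutral amino acid carrier, by 0.63 and 0.38. GDF15, a secreted stress cytokine, fell by 2.03 and 1.75, and EIF4EBP1, a repressor of cap-dependent translation, by 1.02 and 0.51. SLC1A5, the glutamine carrier, fell by 1.59 with LGX818. With shERK2 at day 7, 7 of 23 rose (background 32.8%) and 8 fell (31.5%), close to the background.

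Of 14 sensors and eIF2 factors tested, 1 rose (background 35.4%) and 4 fell (33.8%) with LGX818 at 24 h, and EIF2B3 was the lowest (-0.75). EIF2AK3, the gene of the ER sensor kinase PERK, rose by 0.32 with LGX818 at 24 h and by 0.29 with shERK2 at day 7, and was 0.44 lower in NT than in parental cells at both days. Of 26 further ER folding, translocation and degradation genes, 5 rose (background 35.4%) and 11 fell (33.8%) with LGX818 at 24 h. OS9, a lectin of ER degradation, rose by 0.71 with LGX818 at 24 h and 0.74 with shERK2 at day 7, and SIL1, the exchange factor of BiP, by 0.52 and 0.77. FKBP14 (-0.99), HSPA13 (-0.79) and LMAN1 (-0.55) fell with LGX818, and with shERK2 at day 7 11 of the 26 rose (background 32.8%) and 8 fell (31.5%).

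Over the 18 group means, the members whose levels ran most alike were PHGDH and SHMT2 (Pearson r = 0.961), MANF and HYOU1 (0.955) and PHGDH and MTHFD2 (0.943). These are descriptions over 18 points that share arms and control arrays.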

How the data were processed

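RNA from 54 samples was measured on Affymetrix arrays. The authors deposited log2 expression values for 18989 probe sets, made with affy and RMA per the submitters' processing notes, with versions not given in the sources used here. Probe sets were named through the platform annotation, with symbols updated by gene ID: 17875 had 1 symbol, 1052 were not listed and 62 were controls. Values were used as deposited. The array medians ranged from 7.78 to 8.04, and the number of arrays limits the precision.

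A gene entered the tests when its level in 1 or more groups of an arm averaged over 7.86, which is the median of the whole table. One limma fit per arm (R 4.3.3, limma 3.58.1, lmFit and eBayes with an intensity trend, 1 mean per group) covered 30 inhibitor arrays or 24 shRNA arrays, with 20 and 16 residual degrees of freedom. Benjamini-Hochberg adjustment ran over all tested genes of a comparison. The scripts were tested on simulated data.

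All named members are described. Per comparison and class, the 2 largest rises and falls among called members, and DDIT3, XBP1, HSPA5 and ASNS, were chosen for closer description, and up to 3 rises and falls per further list. The members and lists were chosen with earlier results of these data known. Array letters were checked for pairing by the correlation of same-lettered deviations from the group means: it exceeded 0.1 for every letter with MEK162 at 3 h (0.432, 0.209 and 0.686), MEK162 at 24 h (0.589, 0.198 and 0.264) and the ERK inhibitor at 3 h (0.335, 0.375 and 0.598), and not elsewhere. Alternatives covered the level filter, the trend, median centring, the letter as a block, the arrays in the fit, single arrays left out and parental cells as control.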

Additional observations from a re-analysis of the deposited data

Results flagged for a closer look

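The effect of an inhibitor differed between 24 h and 3 h, by the limma test of the difference, in 16 of 33 members with LGX818 (background 52%), 15 with trametinib (49.7%), 13 with MEK162 (50.9%) and 15 with the ERK inhibitor (48.7%). These shares are not above those of all tested genes and are not a result about the members. The effect of shERK2 differed between day 7 and day 3 in 13 members (background 23.9%).

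PPP1R15A fell at 3 h and rose at 24 h with every inhibitor. The difference of the effects was 1.27 on the log2 scale with LGX818, 1.14 with trametinib, 1.25 with MEK162 and 1.02 with the ERK inhibitor. DMSO cells fell by 1.22 over the same time.

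SLC7A5 rose at 3 h and fell at 24 h with 3 inhibitors. The difference was -0.88 with trametinib, -0.44 with MEK162 and -0.74 with the ERK inhibitor.

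With shERK2, DDIT4 was higher at day 3 and lower at day 7, a difference of -0.47. SDF2L1 was lower at day 3 and higher at day 7, a difference of 0.58, and its day 7 rise was lost without array a (0.07). Its day 3 call was lost without shERK2 array a or b and without NT array a or c. The day 3 rise of DDIT4 was not called against parental cells.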

How the results depend on the processing

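The letter as a replicate block moved no count of called members by over 1.5 times; with it CEBPG with the ERK inhibitor at 3 h was -0.22 (adjusted p = 0.0533) and no longer called, and SLC7A11 with LGX818 at 3 h and CEBPG with shERK1 at day 3 were also lost, while CANX with MEK162 at 24 h was gained. In a fit of only the 2 groups with the replicate block, MEK162 at 3 h had 14 calls in place of 7. A fit of only the 2 groups called 1 in place of 7 with the ERK inhibitor at 3 h, 19 in place of 12 with shERK2 at day 3, 19 in place of 11 with shERK1 at day 7 and 13 in place of 20 with shERK2 at day 7. Median centring left 2 of 5 with shERK1 at day 3. The 2 members that separated the ERK inhibitor from the MEK inhibitors were 1 without the level filter, without the trend or with centring. A fit of all 54 arrays called 1 in place of 0 for shERK1 day 7 minus day 3. The shares of all genes called under these settings are not given here, so these counts are not a result about the members. With parental cells as control shERK1 had 10 calls at day 3 and 19 at day 7.

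With parental cells as control the direction reversed for HERPUD1 (-0.0306) with shERK1 at day 3, for HSPA5 (-0.56) and HYOU1 (-0.21) with shERK2 at day 3, for DDIT3 (-0.42), DNAJB9 (-0.35) and HERPUD1 (-0.29) with shERK1 at day 7, and for DNAJC3 (-0.35), SDF2L1 (-0.0504), MANF (-0.18) and HYOU1 (-0.15) with shERK2 at day 7. NT cells were lower than parental cells in HSPA5, HYOU1, DNAJB9 and HERPUD1 at both days.

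Leaving out 1 array at a time gave 1 to 4 calls with shERK1 at day 3 (1 without NT array c, 2 without NT array a or b or shERK1 array b), 6 to 9 with shERK1 at day 7, 0 to 2 for its change over days, 3 to 6 with trametinib at 3 h (3 without its array c), 8 to 15 for the shERK2 change over days (8 without NT day 3 array a), 4 to 5 for NT against parental at day 3, 0 to 3 for NT over days, 1 to 5 for LGX818 against the MEK inhibitors (1 without LGX818 array b) and 1 to 3 for the ERK inhibitor against them. The amino acid minus ER median ran from -0.0159 to 0.0502 with LGX818, -0.0213 to 0.0613 with trametinib and -0.01 to 0.09 with MEK162 at 3 h, -0.0050 to 0.0975 with the ERK inhibitor at 3 h (lowest without its array c), -0.17 to -0.0181 with LGX818 at 24 h (nearest 0 without DMSO array b), -0.29 to -0.13 with MEK162 at 24 h, 0.0743 to 0.181 and 0.0066 to 0.108 with shERK1 at day 3 and day 7, and -0.26 to -0.17 with shERK2 at day 3. Every member had 1 probe set, so another choice of probe set was not run. The causes were not tested.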
